A study of Mus musculus with 90 samples.

Results

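The comparison described here is that of 5 amygdala libraries from resident male mice killed 30 min after meeting an intruder with 5 amygdala libraries from control residents killed at the same time. Its members were taken from the titles of the samples, by region, time and condition, and they are 10 of the 90 libraries of the series. All residents were C57BL/6J males that had shared a cage with a C57BL/6J female to establish a territory. For the intruder group an unfamiliar BALB/cJ male, held in a steel mesh cage that prevented contact, was placed in the home cage for 5 min. Controls received the same mesh cage holding a paper cup, so both groups had a new object in the cage, had lost their female shortly before the test and sat in a dark, quiet place until they were killed. The labels give 1 animal per library, whereas the series' design text says that RNA samples were pooled for the libraries. p-values therefore measure the spread between these libraries.

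The amygdala is a group of nuclei of the temporal lobe that handles social odours, threat and aggression, and it lies against the striatum, the globus pallidus and the lateral ventricle. Neurons that have just fired switch on immediate-early genes without new protein synthesis, first transcription factors such as Fos, Egr1 and Npas4 and then effectors such as Arc and Bdnf that act on synapses. The messenger RNA of these genes peaks within about an hour of a stimulus, which makes them the usual readout of recent activity in bulk tissue. Bulk tissue also limits them: in these libraries a response in fewer cells and a smaller response per cell cannot be told apart.

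The promoters of the factors that led the list of immediate-early genes are shown first, since promoters are one place where activity-dependent signals act on such genes. They are the 250 bases before the transcription start, taken from RefSeq in build GRCm38.p6, which is not the build of the reads. Capitals mark matches to 5 motifs: the cAMP response element TGACGTCA, the AP-1 site TGANTCA, the CArG box, the EGR site GCGNGGGCG and the glucocorticoid response element. None of these motifs contains another, and both strands were searched.
Fos, chr12:85473640-85473889, plus strand: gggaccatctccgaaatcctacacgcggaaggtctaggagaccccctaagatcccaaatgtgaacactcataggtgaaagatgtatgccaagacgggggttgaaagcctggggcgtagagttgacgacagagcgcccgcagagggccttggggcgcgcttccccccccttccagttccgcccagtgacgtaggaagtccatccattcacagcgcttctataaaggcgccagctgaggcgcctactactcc
Npas4, chr19:4989972-4990221, minus strand: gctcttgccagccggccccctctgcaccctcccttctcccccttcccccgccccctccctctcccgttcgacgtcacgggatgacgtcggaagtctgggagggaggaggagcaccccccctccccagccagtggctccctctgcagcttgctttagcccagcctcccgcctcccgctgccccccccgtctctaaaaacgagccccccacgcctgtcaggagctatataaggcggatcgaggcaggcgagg
Nr4a1, chr15:101266596-101266845, plus strand: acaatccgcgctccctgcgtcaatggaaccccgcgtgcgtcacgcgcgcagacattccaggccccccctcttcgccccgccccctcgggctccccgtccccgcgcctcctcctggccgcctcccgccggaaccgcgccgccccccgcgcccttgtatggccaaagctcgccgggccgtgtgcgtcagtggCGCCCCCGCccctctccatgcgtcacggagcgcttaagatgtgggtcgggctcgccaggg
The Nr4a1 window held 1 EGR match, on the minus strand, and the windows of Fos, Npas4 and Jund held no match to any of the 5 motifs. Among 32851 promoters of the same length, 4.7% held the EGR site, 6.75% the AP-1 site, 1.55% the cAMP response element, 1.47% the CArG box and 0.00913% the glucocorticoid response element. A missing match says only that these letters are not in this window. Jund was searched but is not printed, and Ier2 and Crem, whose p ranked among these, were not searched here.

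The 10 libraries held 44888062 to 51033716 reads on genes, and 6 measures of library quality did not differ between the groups (exact permutation tests, two-sided, smallest p 0.119, where 252 groupings allow 0.00794). All 16 markers of amygdala nuclei were detected, among them Prkcd of the central nucleus at 19.3 to 26.1 CPM (read counts per 1000000 reads on genes, with TMM scaling) and Rspo2 of the basolateral nucleus at 4.35 to 11.5 CPM. The libraries nonetheless differed in what else they held. The first principal component took 53.9% of the variance of the 2000 most variable genes and set controls 1, 3 and 5 and intruders 4 and 5, at 13.2 to 22.2, against controls 2 and 4 and intruders 2 and 3, at -31.4 to -11.8, with intruder 1 at -3.53 between them. Genes of striatal and basal forebrain neurons lay at the high end, such as Scn4b, a sodium channel subunit, and Chat, which makes acetylcholine. At the low end lay Ttr, the thyroxine carrier of the choroid plexus, with Krt2, Mybpc1 and Olig3. The component crossed the 2 conditions. The summed level of 9 striatal markers, among them the dopamine receptors Drd1 and Drd2, ran from 368 CPM in control 4 and 367 CPM in control 2 to 2045 CPM in control 1, and from 430 CPM in intruder 3 to 1472 CPM in intruder 5. None of the 9 was at 0 in any library. A pair of added fits, chosen after seeing the data, therefore stand beside the main results: one with the striatal marker level as a covariate and one without the 4 libraries lowest in it, controls 2 and 4 and intruders 2 and 3.

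**Figure D1:**
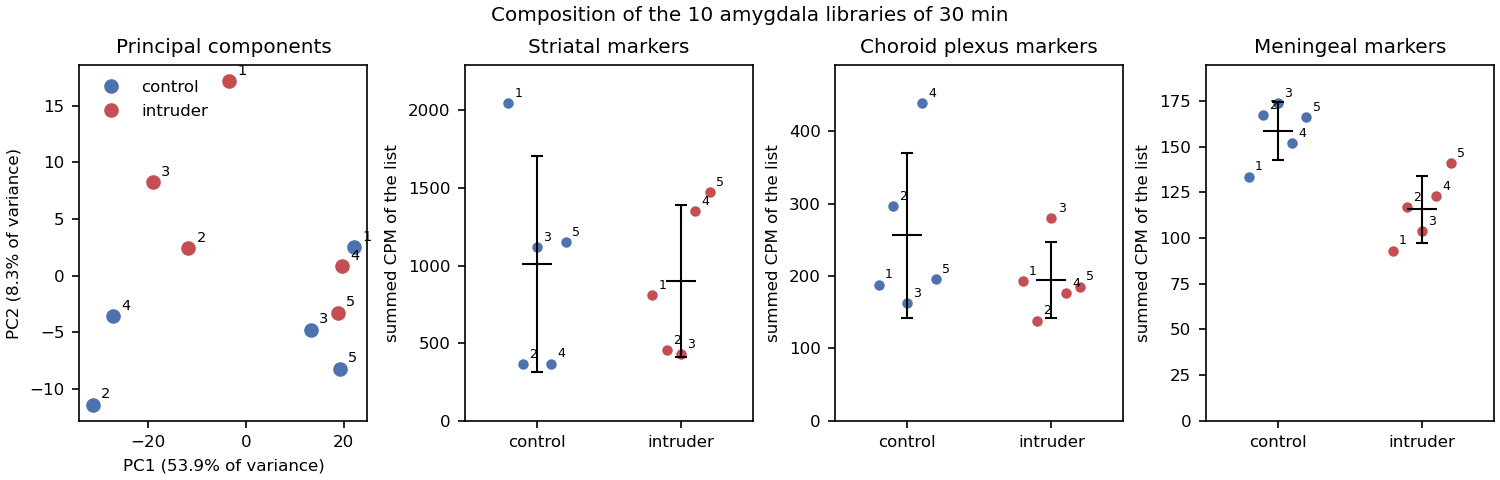
Composition of the 10 amygdala libraries of 30 min. The left panel plots the first against the second principal component and the other panels the summed CPM of the striatal, choroid plexus and meningeal markers by library, with the replicate number beside each point and bars for mean and SD. Striatal markers span 367 to 2045 CPM and cross the conditions, whereas the meningeal sums of the intruder libraries (93.2 to 141 CPM) lie mostly below those of the controls (134 to 174 CPM).

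Across the genome no gene could be called different between intruder and control amygdala at 30 min. Of 17277 genes tested with edgeR's quasi-likelihood test, 0 (0.0%) had a Benjamini-Hochberg adjusted p below 0.05, and the smallest adjusted p was 0.9997. At an unadjusted p below 0.05 there were 473 genes (2.74%), 230 higher in intruder libraries (1.33%) and 243 lower (1.41%), where a uniform spread of p-values would give 5%. DESeq2 called 0 with 455 genes at that unadjusted level, and limma voom called 0 with 496. In 62 genes (0.359%) all 5 intruder libraries lay above all 5 controls, and in 76 genes (0.44%) below. Under upper-quartile scaling the split at p below 0.05 moved to 352 higher and 158 lower, so the balance of directions depends on the scaling.

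The estimates were tight for expressed genes. Among 14211 genes with a mean of at least 1 CPM, the median half-width of the 95% confidence interval was 0.161 on the log2 scale, and the interval excluded a 2-fold difference in either direction for 13954 of them (98.2%). The estimate itself was under 0.5 in size for 99.6% of these genes. With the striatal level as a covariate 856 genes reached the unadjusted 0.05 and none was called, and without the 4 libraries low in striatal markers 259 did and none was called. Libraries 4 and 5 of the control group carried another leading index than the other 8, and without them 319 genes reached the unadjusted 0.05 and 0 were called.

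**Figure D2:**
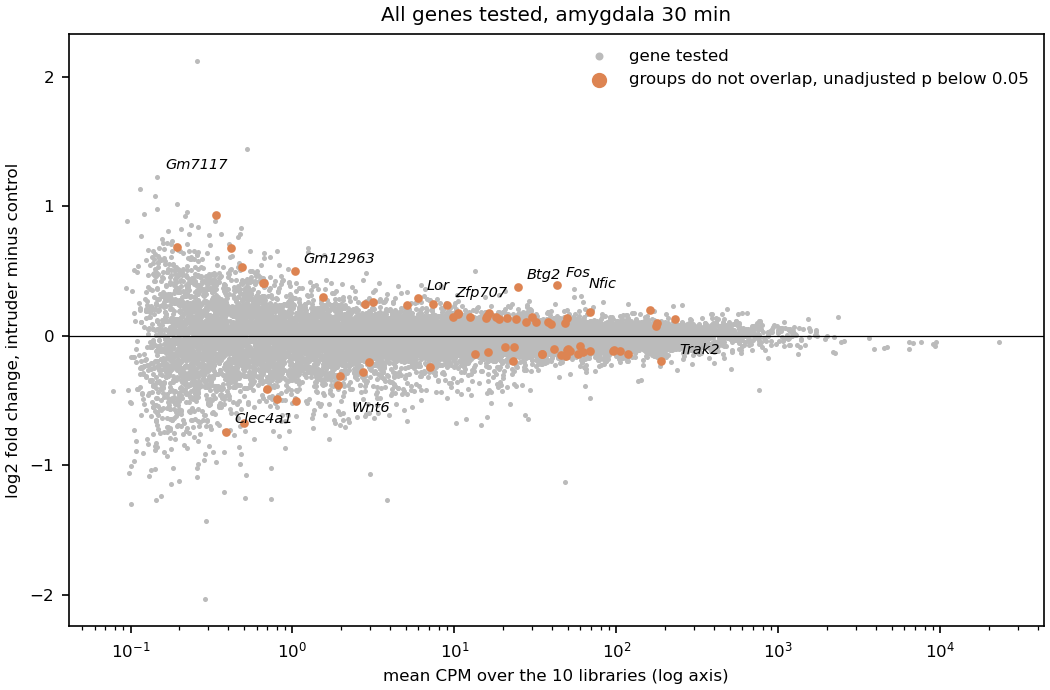
Every gene tested, by mean CPM over the 10 libraries (log axis) and log2 fold change of intruder over control. Orange points are the 71 genes whose groups do not overlap and whose unadjusted p is below 0.05; they lie on both sides of 0, and 10 of the genes named in the text are labelled.

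Immediate-early transcription factors came first among the gene groups, since the comparison asks what a social encounter switched on. Of 24 factors listed, 23 were tested (Fosl1 was too low), 11 were higher and 12 lower in intruder libraries, and none was called. The median log2 fold change was -0.0054, against -0.0078 for all genes, and it ran from -0.058 to 0.074 over 22 alternatives with a change of sign in 10. Under upper-quartile scaling 13 were higher. Unadjusted p was below 0.05 for 3 factors, Fos, Npas4 and Ier2, each higher, where 1.33% of all genes are. It was below 0.05 in 19 of 22 alternatives for Fos, 13 for Npas4 and 21 for Ier2. The list was chosen with earlier results of these data known.

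Fos, a component of the AP-1 complex and the classic marker of recently active neurons, measured 49.97, 45.9, 53.6, 50.5 and 43.9 CPM in intruder libraries 1 to 5 and 39.2, 36.0, 39.4, 36.5 and 35.0 CPM in the controls. Every intruder library lay above every control, and Fos was the only factor of the 23 tested of which this held, beside 0.359% of all genes. Its mean was 48.8 ± 3.89 against 37.2 ± 1.97 CPM (SD, n = 5 each). The log2 fold change of Fos was 0.39 (SE 0.15, 95% interval 0.084 to 0.69), with an unadjusted p of 0.0144 and an adjusted p of 0.9997 in edgeR. Without the 4 libraries low in striatal markers the log2 fold change was 0.35, and without controls 4 and 5 it was 0.36. Over 22 alternatives it ran from 0.35 to 0.43, and none of them gave Fos an adjusted p below 0.30.

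Npas4, a factor induced almost only by neuronal calcium entry, measured 21.8, 22.9, 26.5, 23.6 and 19.5 CPM in intruder libraries and 19.3, 17.0, 17.6, 15.2 and 20.6 CPM in controls. Intruder 5 lay below control 5, and the other 4 intruder libraries lay above every control. The log2 fold change was 0.35 (SE 0.16) with an unadjusted p of 0.0384, and it was 0.18 without the 4 libraries low in striatal markers. Ier2, a small nuclear protein of the first wave, measured 3.72, 4.43, 4.77, 4.94 and 4.98 CPM against 4.04, 4.01, 3.61, 3.62 and 3.90 CPM. Intruder 1 lay among the controls and the other 4 lay above them. The estimate for Ier2 was 0.25 on the log2 scale (SE 0.091) with an unadjusted p of 0.0102, the smallest of the list.

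Other factors of the AP-1 and nuclear receptor families had estimates on both sides of 0, and none reached an unadjusted p below 0.05. Junb, an AP-1 partner, was 68.7, 64.6, 71.7, 73.5 and 62.7 CPM in intruder libraries and 69.4, 53.4, 53.9, 57.9 and 49.9 CPM in controls, and control 1 alone reached the intruder range. Nr4a1, an orphan nuclear receptor, was 89.5, 81.4, 90.9, 103 and 87.6 CPM against 90.3, 68.4, 73.7, 71.6 and 74.7 CPM, again with control 1 alone inside the intruder range. Their log2 fold changes were 0.26 (SE 0.17) and 0.26 (SE 0.15). Fosb was at 0.23 (SE 0.14), Jund at 0.18 (SE 0.095), Egr4 at 0.21 (SE 0.15) and Egr2 at 0.15 (SE 0.22). Egr1, a zinc finger factor often used beside Fos as a marker of activity, gave 224, 209, 217, 267 and 241 CPM against 272, 172, 249.6, 191 and 209 CPM, so the groups overlapped almost wholly and the log2 fold change was 0.081 (SE 0.12). Jun, another AP-1 partner, was at -0.038 (SE 0.19) and Fosl2, a paralogue of Fos, at -0.037 (SE 0.11). Lower estimates were those of Nr4a3 at -0.17 (SE 0.21), Nr4a2 at -0.13 (SE 0.30) and Crem, a cAMP-responsive repressor and activator, at -0.12 (SE 0.063). Without the 4 libraries low in striatal markers the direction turned for Jun (0.10), Fosl2 (0.040), Nr4a3 (0.054) and Nr4a2 (0.030).

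**Figure D3:**
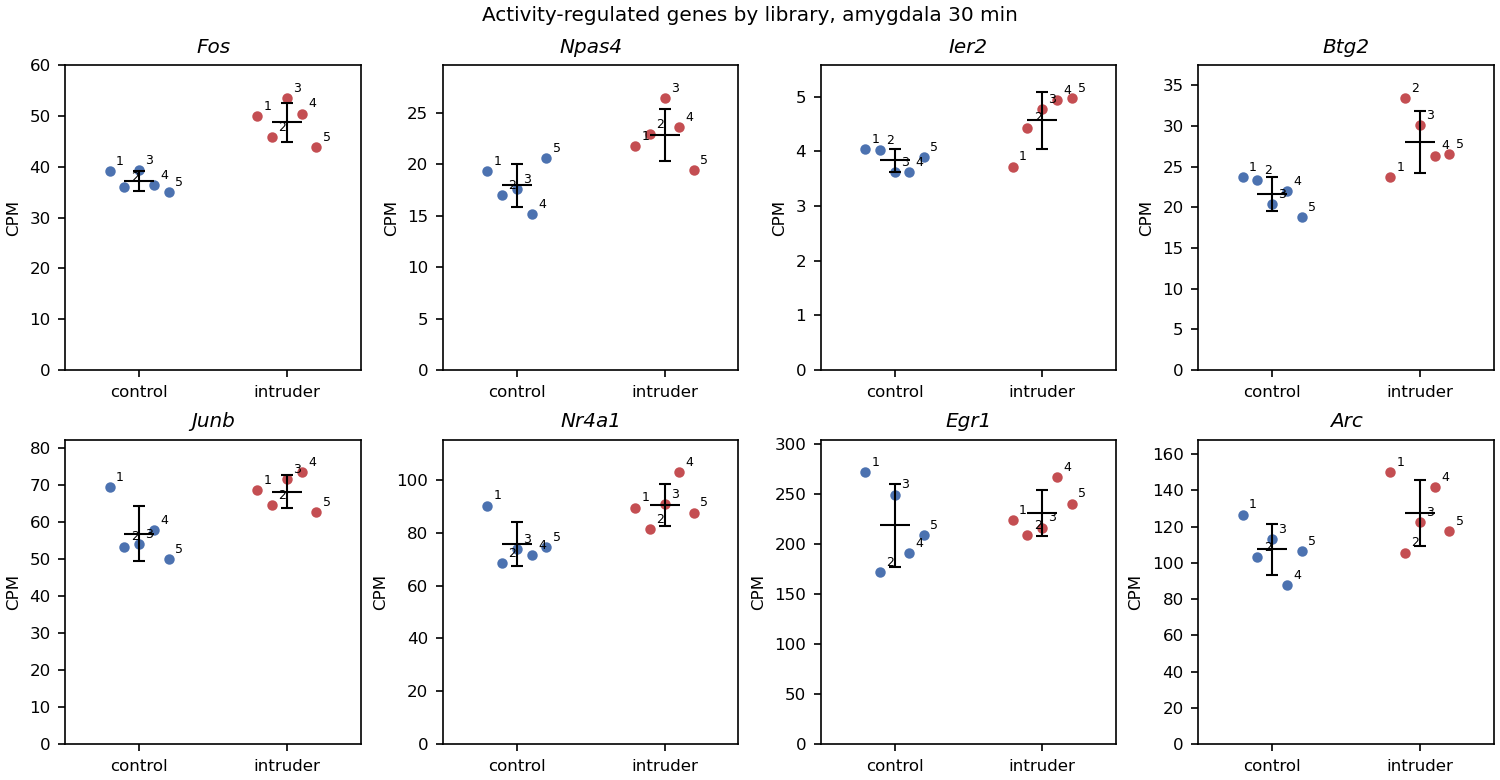
CPM of 8 activity-regulated genes in the 10 libraries, with the replicate number beside each point and bars for mean and SD of 5 libraries. Fos and Btg2 show no overlap between the groups, Npas4 and Ier2 overlap by 1 intruder library each, and Egr1 and Arc overlap more widely.

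Effector genes of the activity programme showed the same mix. Of 28 listed and tested, 16 were higher and 12 lower, the median log2 fold change was 0.025, and 1 was higher at an unadjusted p below 0.05, where 1.33% of all genes are. That gene was Btg2, an antiproliferative factor of the early response, at 23.8, 33.5, 30.1, 26.4 and 26.5 CPM in intruder libraries and 23.7, 23.3, 20.4, 22.0 and 18.8 CPM in controls. Intruder 1 and control 1 were nearly equal, and no control reached any intruder library, as in 0.359% of all genes. The log2 fold change of Btg2 was 0.37 (SE 0.15) with an unadjusted p of 0.0202 and an adjusted p of 0.9997 in edgeR, and it was 0.29 without the 4 libraries low in striatal markers.

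Arc, which removes AMPA receptors from synapses, was 150.02, 106, 122.6, 142 and 117 CPM in intruder libraries and 127, 103, 113, 87.9 and 106 CPM in controls. The groups overlapped, and the log2 fold change was 0.25 (SE 0.22). Estimates with an unadjusted p between 0.05 and 0.1 were those of Sik1, a kinase that dampens CREB signalling, at 0.18 (SE 0.097), of Gadd45g at 0.15 (SE 0.081), of the secreted protein Vgf at 0.13 (SE 0.074) and of Homer1, a postsynaptic scaffold, at -0.22 (SE 0.12). Bdnf, the neurotrophin of active synapses, was 20.4 to 26.3 CPM in intruder libraries and 20.2 to 35.1 CPM in controls, with a log2 fold change of -0.15 (SE 0.27). For all 23 tested factors and all 28 effectors the 95% interval lay between -1 and 1 on the log2 scale.

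**Figure D4:**
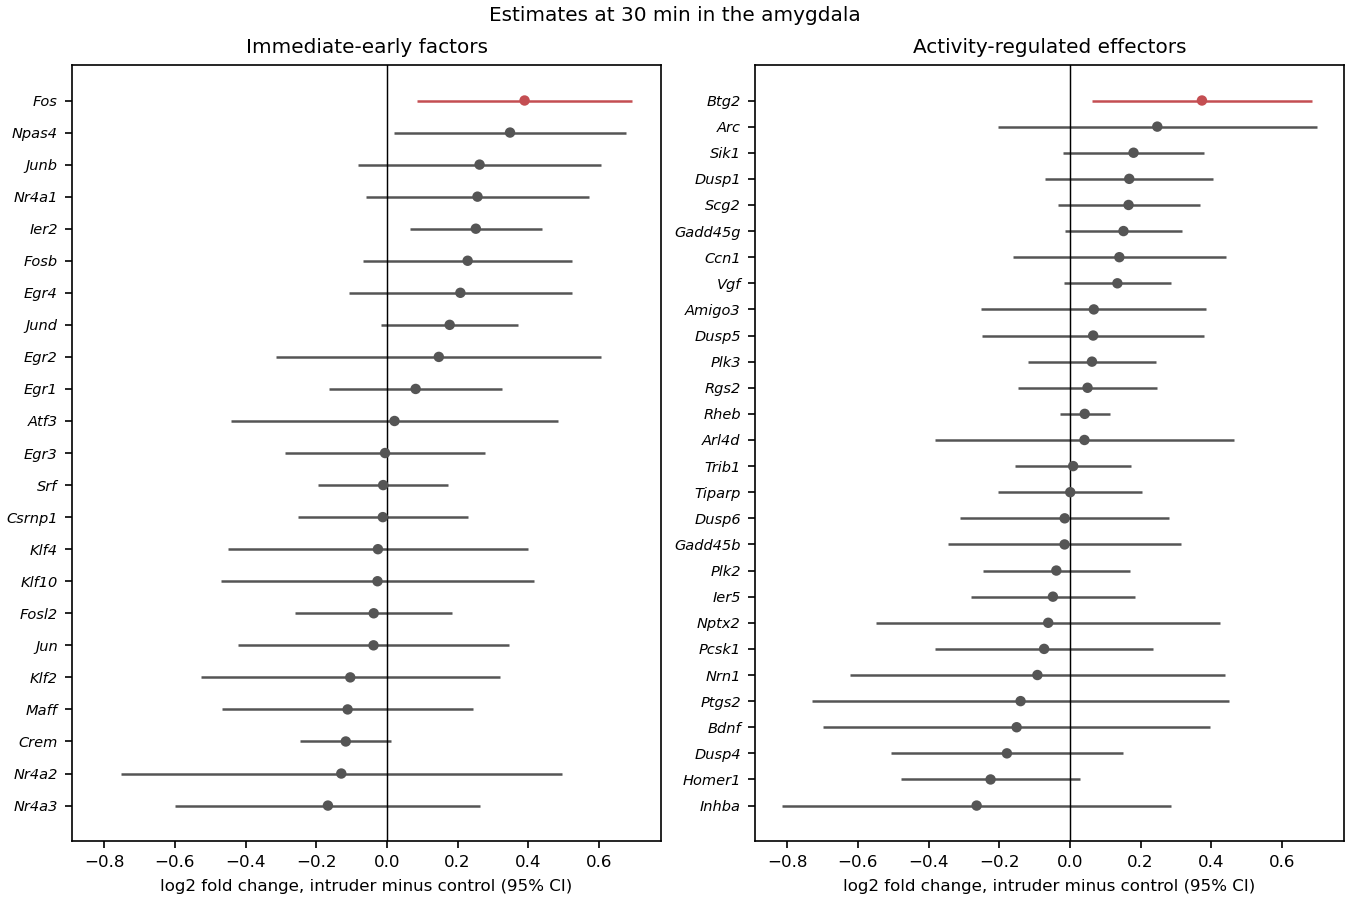
Log2 fold change of intruder over control with its 95% confidence interval for the 23 tested immediate-early factors (left) and the 28 activity-regulated effectors (right). Fos and Btg2, in red, are the members whose groups do not overlap, and every interval lies between -1 and 1.

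Genes that respond to glucocorticoids, the adrenal hormones released under stress, had no member that passed the test. Of 16 tested, 5 were higher and 11 lower (7 and 9 under upper-quartile scaling), 0 were called by edgeR and 0 reached an unadjusted p below 0.05, with a median log2 fold change of -0.023. That median ran from -0.16 to 0.054 over 22 alternatives and changed sign in 4, with the highest value without control 1. Fkbp5, a chaperone that restrains the glucocorticoid receptor, was 47.2 to 64.9 CPM in intruder libraries and 41.6 to 60.0 CPM in controls, with a log2 fold change of 0.0048 (SE 0.11). Sgk1, a kinase that is also abundant in oligodendrocytes, was 47.5 to 82.7 CPM against 48.4 to 100.5 CPM. The summed level of 9 oligodendrocyte markers in the same libraries ran from 3158 to 5264 CPM and from 2417 to 5795 CPM, and its part in the spread of Sgk1 was not tested. Hif3a, which glucocorticoids induce, had the largest estimate of the list at 0.38 (SE 0.24), with 7.11 to 11.8 CPM in intruder libraries and 4.19 to 12.5 CPM in controls.

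Neuropeptides had estimates mostly above 0 and wide intervals. Of 23 tested, 16 were higher and 7 lower, the median was 0.087, and 0 were called or reached an unadjusted p below 0.05 in edgeR. Tac2, the tachykinin neurokinin B, was 20.4, 12.0, 15.2, 16.5 and 14.1 CPM in intruder libraries and 12.6, 7.69, 13.0, 11.9 and 10.003 CPM in controls. Intruder 2 alone lay within the control range. The estimate for Tac2 was 0.50 on the log2 scale (SE 0.26) with an unadjusted p of 0.0631. Crh, the corticotropin-releasing hormone of the central nucleus, was at 0.22 (SE 0.24), Sst at 0.080 (SE 0.081), Npy at -0.0048 (SE 0.098) and Cck at -4.7e-05 (SE 0.32). Penk, Pdyn and Tac1, peptides of striatal projection neurons, ranged from 153 to 601 CPM, 23.7 to 78.9 CPM and 44.4 to 121 CPM over the 10 libraries, and control 1, the library highest in striatal markers, was the highest for Penk and Tac1. Avp and Oxt, made by hypothalamic neurons and also, for Avp, in the medial amygdala, ran from 4.56 to 44.4 CPM and from 0.258 to 6.54 CPM within the control group alone.

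Receptors for these peptides and for steroids were balanced, with 16 higher and 17 lower of 33 tested and none reaching an unadjusted p below 0.05. Esr1, the oestrogen receptor that marks aggression-related neurons, was 5.73 to 17.1 CPM in intruder libraries and 4.80 to 25.3 CPM in controls, with a log2 fold change of -0.21 (SE 0.48). Crhr1, the main receptor for Crh, was at 0.071 (SE 0.074) and the vasopressin receptor Avpr1a at 0.14 (SE 0.47). Among 22 genes of monoamine and cannabinoid signalling 8 were higher and 14 lower. Htr7, a serotonin receptor coupled to cAMP, was the one member higher at an unadjusted p below 0.05, where 1.33% of all genes are: it measured 20.6, 19.8, 21.3, 19.8 and 20.6 CPM in intruder libraries and 18.5, 16.8, 19.9, 19.9 and 17.6 CPM in controls, so the estimate was 0.14 on the log2 scale (SE 0.059, p 0.0259). Controls 3 and 4 lay inside the intruder range. Of 36 glutamate and GABA receptor subunits 17 were higher, 19 were lower, and none reached that level.

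Genes of energy metabolism and translation had small estimates, mostly of 1 sign within each group. In glycolysis and the citrate cycle 27 of 31 genes were higher in intruder libraries, the median estimate was 0.032 on the log2 scale, and none reached an unadjusted p below 0.05. Under the 2 other edgeR scalings and in DESeq2, 1 did. Eno2, the neuronal enolase, came nearest in the main fit at 0.078 (SE 0.039, p 0.0526, below 0.05 in 11 of 22 alternatives), with 1015, 981, 978, 994 and 1042 CPM against 1011, 917, 947, 968 and 903 CPM. Nuclear genes of oxidative phosphorylation were higher in 73 of 77 cases with a median of 0.048, and genes of cytosolic ribosomal proteins in 74 of 78 with a median of 0.039, where 8016 of all 17277 genes were higher. Over 22 alternatives these medians ran from 0.030 to 0.090 and from 0.014 to 0.073, and that of glycolysis and the citrate cycle from 0.017 to 0.054. No member of either list reached an unadjusted p below 0.05. The majority direction of these 3 groups was the same under the 2 other scalings. The 12 tested mitochondrially encoded genes were all lower, with a median of -0.070 that ran from -0.13 without the 4 libraries low in striatal markers to -0.0050 without control 5. The genes of a group share their libraries, so a count of directions is not a count of independent events. Their summed levels overlapped broadly: 8855 to 10210 CPM in intruder libraries against 8524 to 10158 CPM in controls for oxidative phosphorylation, and 68909 to 78547 against 65972 to 88264 CPM for the mitochondrial genes.

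The circadian clock list held 16 genes, of which 14 were lower in intruder libraries (13 under upper-quartile scaling), with a median of -0.047 and 2 lower at an unadjusted p below 0.05 (1 under upper-quartile scaling), where 1.41% of all genes are. The median was 0.0028 without control 1 and lay between -0.11 and -0.028 in the other alternatives. Per2, a repressor of the clock that light and glucocorticoids can induce, was 62.7, 52.2, 57.8, 60.5 and 53.2 CPM against 74.7, 63.8, 70.1, 59.8 and 61.5 CPM, a log2 fold change of -0.20 (SE 0.098, p 0.0459). Clock, a core activator, was 65.8, 73.6, 69.0, 75.4 and 65.7 CPM against 71.4, 77.5, 79.7, 79.2 and 76.3 CPM, at -0.14 (SE 0.060, p 0.0324). In both genes the groups overlapped, and p was below 0.05 in 13 of 22 alternatives. Arntl, the partner of Clock, was the member whose groups did not overlap, at 24.7 to 27.2 CPM against 27.5 to 29.6 CPM, and its log2 fold change was -0.13 (SE 0.078). Beside 0.44% of all genes below, that is 1 of 16. Among neurotrophins and their receptors 9 of 11 were lower, and Igf1, a growth factor of scattered interneurons and microglia, was at -0.29 (SE 0.12, p 0.0243, below 0.05 in 14 of 22 alternatives) with 6.04 to 9.82 CPM against 7.20 to 11.5 CPM. Heat shock and cold response genes were lower in 10 of 13 cases, and Hspa5, the chaperone of the endoplasmic reticulum, was at -0.21 (SE 0.10, p 0.0499, below 0.05 in 7 of 22 alternatives and in neither of the other 2 edgeR scalings) with 333 to 411 CPM against 356 to 462 CPM.

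Among genes with a symbol, the 12 of smallest p on the higher side in intruder libraries were E130215H24Rik, Zfp707, Gm7808, Gm7117, Dhps, Nfic, Tob1, Slc45a1, Snord72, Lor, Nosip and Pcdhb12. None was called. Zfp707, a zinc finger protein, was 9.58, 10.3, 10.02, 8.88 and 9.56 CPM against 8.01, 8.45, 7.62, 8.79 and 8.22 CPM, without overlap and with a log2 fold change of 0.23 (SE 0.063). Dhps, which makes the hypusine residue of a translation factor, was 33.8, 31.6, 30.5, 31.3 and 31.7 CPM against 29.8, 28.2, 29.5, 27.7 and 28.6 CPM, without overlap, at 0.15 (SE 0.042). Nfic, a transcription factor of the nuclear factor I family, was at 0.30 (SE 0.094) with control 5, at 67.6 CPM, inside the intruder range of 60.7 to 74.2 CPM. Tob1, a relative of Btg2, was at 0.14 (SE 0.043). E130215H24Rik, Gm7808, Gm7117 and Snord72 lay below 1 CPM in all 10 libraries.

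Among those lower the smallest p-values were those of Txlna, Dnajc1, Cyp11a1, Zc3h7a, Clec4a1, Trak2, Yipf6, Txlng, Rnft1, Dnajc3, Prc1 and Nek7. Txlna, a taxilin that binds syntaxins of vesicle traffic, was 53.4, 53.5, 56.8, 58.6 and 55.3 CPM in intruder libraries and 60.1, 59.8, 60.1, 63.4 and 62.0 CPM in controls, without overlap, at -0.14 (SE 0.040). Its paralogue Txlng was at -0.14 (SE 0.046), also without overlap. Trak2, an adaptor that carries mitochondria along axons, was 199, 202, 199.99, 214 and 199 CPM against 243, 228, 214, 212 and 270.4 CPM, at -0.20 (SE 0.063). Dnajc1 and Dnajc3, co-chaperones of the endoplasmic reticulum, were at -0.20 (SE 0.059) and -0.19 (SE 0.063), and in both genes control 1 lay among the intruder libraries. Clec4a1, a lectin of myeloid cells, was at -0.74 (SE 0.23) from levels of 0.245 to 0.373 CPM against 0.422 to 0.559 CPM. The log2 fold changes of all 24 of these genes kept their sign in every alternative that could be fitted for them. The alternatives reuse the libraries by which the genes were chosen, so stable signs were likely beforehand and are no separate support.

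The largest estimates among genes of at least 1 CPM whose groups did not overlap were Gm12963 (0.50), Fos (0.39), Btg2 (0.37), B430305J03Rik (0.30), Lor (0.29) and Gm9776 (0.26) on the higher side. On the lower side they were Wnt6 (-0.65), Mpzl2 (-0.60), Fgf5 (-0.51), Gm20627 (-0.50), Plscr2 (-0.50) and Angptl2 (-0.48). Wnt6, a secreted ligand of the Wnt pathway, was 1.25, 1.78, 1.15, 1.99 and 1.78 CPM against 2.34, 2.35, 2.97, 2.03 and 2.82 CPM, without overlap and with an unadjusted p of 0.162. Angptl2, a secreted glycoprotein, was 1.92 to 3.22 CPM against 3.40 to 4.604 CPM.

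Markers of the meninges, the membranes over the brain, had estimates below 0. All 6 of them were lower in intruder libraries, with a median log2 fold change of -0.43, none at an unadjusted p below 0.05. Col1a2, a fibrillar collagen chain of fibroblasts, was 14.5, 16.3, 13.4, 19.1 and 20.9 CPM in intruder libraries and 20.9, 22.0, 24.9, 21.6 and 24.1 CPM in controls, just without overlap. That is 1 of the 6, beside 0.44% of all genes below. The summed level of the 6 markers was 93.2, 117, 104, 123.1 and 141 CPM against 134, 167, 174, 152 and 166 CPM. Its part in the estimates of Wnt6, Angptl2, Mpzl2 and Igf1 was not tested. Markers of other non-neuronal cells were lower in 9 of 9 cases for mural cells (8 under upper-quartile scaling), 8 of 9 for microglia, 6 of 8 for astrocytes and 7 of 10 for endothelium, with medians of -0.12, -0.046, -0.072 and -0.055, and in 2 of 9 for oligodendrocytes. The oligodendrocyte median of 0.042 ran from -0.088 to 0.19 over 22 alternatives and changed sign in 5. The 9 striatal markers were all lower, with a median of -0.13 that ran from -0.42 to 0.31 and changed sign in 4 alternatives, the highest value being that without control 1. The 8 choroid plexus markers were all lower too, with a median of -0.70, but that median was -0.061 without the 4 libraries low in striatal markers. Ttr, one of them, was 31.0, 6.80, 105, 3.22 and 5.81 CPM in intruder libraries and 10.8, 107, 2.93, 206 and 4.56 CPM in controls, so intruder 3 and controls 2 and 4 stood far above the rest.

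Later times tell how the estimates at 30 min stand in the course of the response. The intruder effect at 30 min was compared with that at 60 min in the same fit of 30 amygdala libraries, and 0 genes (0.0%) differed at an adjusted p below 0.05 in edgeR, with 1458 at an unadjusted p below 0.05 and 0 called by DESeq2 and by limma voom. Fos averaged 25.5 ± 5.82 CPM in intruder and 29.0 ± 7.78 CPM in control libraries at 60 min (SD, n = 5 each), a log2 fold change of -0.18, and the effect at 30 min exceeded it by 0.57 (SE 0.21, unadjusted p 0.0117, adjusted p 0.558 in edgeR). Btg2 gave a difference of 0.52 (SE 0.22) and Ier2 of 0.33 (SE 0.13), neither called. The smallest p-values of this test belonged to Cdc25b, a cell cycle phosphatase, at -0.14 against 0.27, Gm7808 at 0.61 against -0.47, and Timm8b, a mitochondrial import chaperone, at 0.10 against -0.23, each with an adjusted p of 0.462 in edgeR. Oxidative phosphorylation genes had a median log2 fold change of 0.048 at 30 min and -0.16 at 60 min, and ribosomal protein genes 0.039 and -0.14.

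Between 30 and 120 min the effect differed for 24 genes (0.139% of 17277) at an adjusted p below 0.05 in edgeR, the smallest being 0.0436. The estimates at the 2 times had opposite signs in all 24: 19 were lower in intruder libraries at 30 min and higher at 120 min, and 5 the reverse. Choosing genes by this difference favours opposite signs, so the signs are not a separate result. In 23 of the 24 the estimate at 120 min was the larger in size, and 21 of the 24 were called at 120 min on their own. At 30 min 12 reached an unadjusted p below 0.05, where 2.74% of all genes did. The genes were chosen by a difference of these same estimates, which raises both counts. Dnajc3 led the list, with 72.5 ± 2.18 against 82.6 ± 7.90 CPM at 30 min and 100.3 ± 7.32 against 80.8 ± 4.21 CPM at 120 min (intruder against control, SD, n = 5 each). The difference of its effects was -0.50 (SE 0.088). Nufip2, an RNA-binding protein, followed with -0.095 at 30 min and 0.36 at 120 min, and Gm7117 with 1.22 and -1.5003 at a level of 0.0439 to 0.313 CPM at 30 min.

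The count of 24 was not stable. Leaving out 1 library of 30 min gave 0 to 56 genes: 56 without control 1, 8 without control 4, 1 without control 3 or intruder 2, and 0 without control 2, control 5 or any of intruders 1, 3, 4 and 5. DESeq2 called 199 genes (22 of the 24 among them), limma voom 5, the fit with the library index as a block 0, the fit with the striatal covariate 74 and the fit without the 4 libraries low in striatal markers 0. All 24 kept the sign of their difference in each of these fits, which was likely beforehand, since the fits reuse the libraries by which the genes were chosen. The columns of all 28 libraries of 30 min carry the tag ISO, and those of all 62 libraries of 60 and 120 min the tag CERV. No source used here explains these tags, and the design text gives the same way of killing for every time, so the tag and the time cannot be told apart in either test between times. At 120 min most intruder libraries carried another leading index than the controls, and at 60 min the intruder libraries another than most controls. Index and condition can therefore hardly be told apart at the later times.

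**Figure D5:**
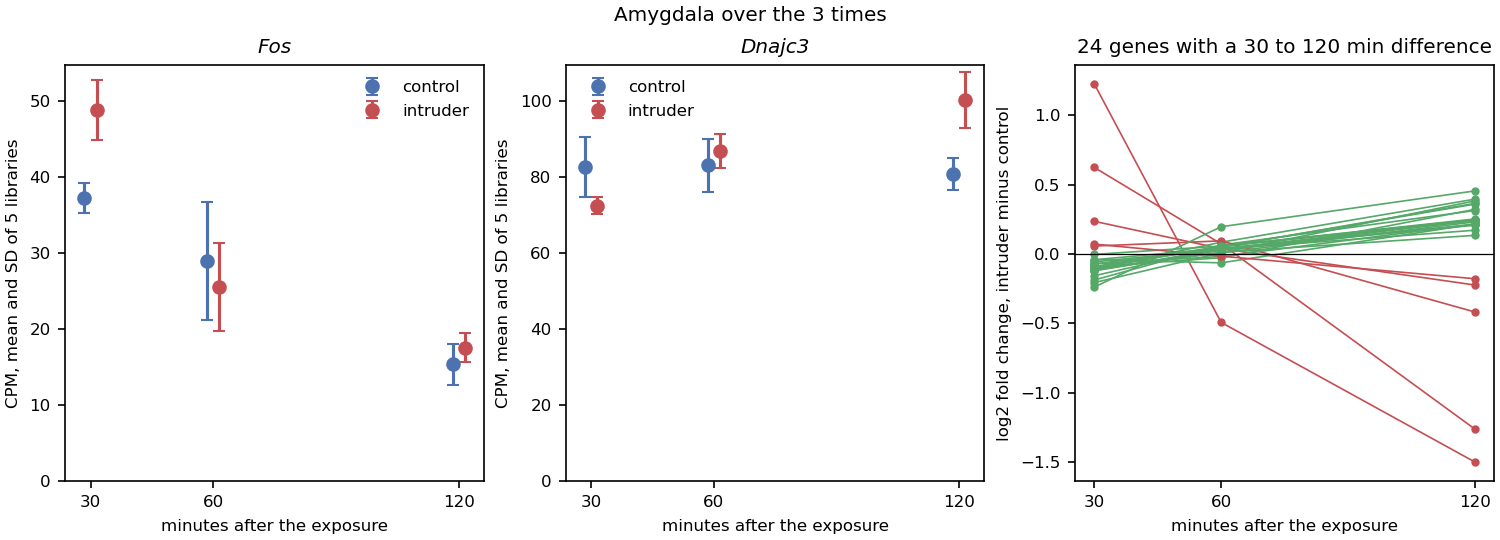
Left and middle, CPM of Fos and Dnajc3 in control and intruder amygdala at 30, 60 and 120 min after the exposure (mean and SD of 5 libraries). Right, the log2 fold change of intruder over control at the 3 times for the 24 genes whose effect differed between 30 and 120 min, in red where the effect at 30 min was the higher and in green where it was the lower. Every line crosses 0 between 30 and 120 min, which the choice of genes by this difference favours.

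The other regions of the same time show whether the estimates were particular to the amygdala. In a fit of the 28 libraries of 30 min, 0 of 17851 genes (0.0%) differed in effect between amygdala and hypothalamus at an adjusted p below 0.05 in edgeR, with 548 at an unadjusted p below 0.05 and 0 called by DESeq2 and limma voom. The log2 fold change of Fos was 0.53 in the hypothalamus, where it averaged 48.8 ± 11.9 CPM in 5 intruder and 33.7 ± 0.409 CPM in 3 control libraries. The amygdala effect differed from it by -0.14 (SE 0.33). Btg2 was at 0.48 in the hypothalamus, a difference of -0.10 (SE 0.29). Of the 23 factors 19 were higher in the hypothalamus, with a median of 0.17, against -0.0056 for all genes tested. The smallest p-values belonged to Arl13b, a GTPase of cilia, at -0.11 in the amygdala against 0.18, Lilra5 at 0.23 against -1.26 and Llgl2 at -0.30 against 0.69.

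Against the frontal cortex 0 of 17851 genes (0.0%) differed at an adjusted p below 0.05 in edgeR, with 1790 at an unadjusted p below 0.05 and a smallest adjusted p of 0.103. DESeq2 called 22 and limma voom 0, and leaving out 1 amygdala library gave 0 to 6 genes: 6 without control 1, 1 without intruder 5 and 0 otherwise. Ubl5, a ubiquitin-like splicing protein, was at 0.12 in the amygdala and -0.17 in the frontal cortex, Podxl2, a sialomucin, at 0.19 and -0.18, and Tagln3, a neuronal actin-binding protein, at 0.11 and -0.17. Fos was at 0.20 in the frontal cortex, where the 5 intruder libraries ran from 32.8 to 128 CPM, and the difference from the amygdala was 0.19 (SE 0.30). Btg2 was at 0.53 there, a difference of -0.15 (SE 0.26). Of the 23 factors 17 were higher in the frontal cortex, with a median of 0.096, against 0.0056 for all genes tested. The labels repeat the animal names across the 3 regions, so the libraries of these tests are not independent between regions; with the animal as a random effect in limma voom both counts were 0.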

How the data were processed

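Reads per gene were deposited by the authors as raw counts for 37991 gene rows. Per the labels' protocols the libraries were stranded poly(A) single-end libraries, and the submitters' processing notes name CASAVA 1.8.2, TopHat2 2.0.8, HTSeq 0.6.1, edgeR 3.2.4, R 3.0.0 and build NCBIM37, while the annotation is not given in the sources used here. 5 rows that name no gene were left out. All 30 amygdala libraries were fitted together with edgeR 4.0.16 in R 4.3.3 (TMM scaling, low-count filter, quasi-likelihood test, 6 group terms), with Benjamini-Hochberg adjustment over 17277 genes; differences between times came from the same fit and those between regions from a fit of the 28 libraries of 30 min. DESeq2 1.42.0 and limma voom 3.58.1 were alternatives, and the code was tested on simulated data. No library was a copy of another. Equal replicate numbers were not treated as pairs. The correlation of deviations was -0.67 to 0.60 for equal numbers (over 0.1 for 2 of 5 pairs) and -0.72 to 0.71 for unequal numbers. With such a range for unequal numbers, the check cannot tell whether the numbers pair samples. Members, gene lists and the rule for named genes (list members, 12 of smallest p and 6 of largest non-overlapping difference in each direction, 3 per difference test) were chosen with earlier results of these data known.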

Additional observations from a re-analysis of the deposited data

Results flagged for a closer look

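Among 186 groups of 5 libraries examined, 9 had 1 library far from the other 4 by Dixon's test, where chance gives about 1 in 20. Reads outside annotated features were 10.78% in intruder 5 and 11.67 to 11.95% in the other intruder libraries. The summed neurotrophin and receptor level was 864.6 CPM in control 1 against 932.4 to 960.0 CPM. Control 1 also stood apart for Nr4a1, at 90.29 against 68.44 to 74.72 CPM, and control 4 for Atf3, at 0.6836 against 1.135 to 1.305 CPM. Among intruder libraries E130215H24Rik was 0.3485 CPM in library 5 against 0.4697 to 0.5047, Tob1 was 45.23 CPM in library 1 against 42.5 to 43.12, and Nosip was 39.71 CPM in library 4 against 41.78 to 42.44. Trak2 was 214.2 CPM in intruder 4 against 198.9 to 202.0, and Gm20627 was 0.5486 CPM in intruder 2 against 0.8926 to 1.026.

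In the main fit a test of the difference between times picked out 24 genes for 30 against 120 min, among them Dnajc3 (-0.50 on the log2 scale), Nufip2 (-0.45) and Gm7117 (2.72). The count fell to 0 with the library index as a block and without single libraries such as control 2. Gm7117 lay at 0.0439 to 0.313 CPM at 30 min.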

How the results depend on the processing

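No gene was called at 30 min in any of 22 alternatives, 2 of them chosen after seeing the data. The number at an unadjusted p below 0.05 was 799 with the 30 min libraries alone, 309 with the library index as a block, 734 without the low-count filter, 856 with the striatal covariate, 259 without the 4 libraries low in striatal markers, and 313 (without control 2) to 837 (without control 1) with 1 library left out. With the replicate number as a block it was 677, with 0 called, and whether the numbers are pairs is not known. The 24 genes of the 30 to 120 min difference became 199 in DESeq2, 5 in limma voom, 74 with the striatal covariate, 0 with the index block, 0 without the 4 libraries, and 0 to 56 with 1 left out. For the frontal cortex difference DESeq2 gave 22 and leaving 1 out 0 to 6.

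The median log2 fold change changed sign in at least 1 alternative for 16 of 29 gene lists followed. Of 75 genes followed, those whose estimate changed sign were immediate-early factors, none of them called. The tested factors were followed whatever their estimate, and most other genes for a small p or groups without overlap. Changes of sign could therefore hardly arise outside the factors, and the count does not set them apart from other genes. Without the 4 libraries the log2 fold changes were 0.040 for Fosl2, 0.10 for Jun, 0.039 for Egr3, 0.030 for Nr4a2, 0.054 for Nr4a3, 0.093 for Klf10, 0.074 for Srf, 0.072 for Csrnp1 and -0.065 for Atf3. Upper-quartile scaling gave 0.0061 for Egr3 and 0.00044 for Srf, and Atf3 was -0.11 in index-matched libraries and -0.11 with the index block. With 1 library left out the ranges were -0.096 to 0.029 for Fosl2, -0.10 to 0.048 for Jun, -0.092 to 0.058 for Egr3, -0.26 to 0.035 for Nr4a2, -0.10 to 0.11 for Atf3, -0.14 to 0.059 for Klf4, -0.086 to 0.11 for Klf10, -0.23 to 0.033 for Maff, -0.057 to 0.047 for Srf and -0.049 to 0.044 for Csrnp1. The cause was not tested. Precision was lower for low genes: the 95% interval excluded a 2-fold difference for 93.1% of all genes tested and 98.2% of those of at least 1 CPM.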

Other observations

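Immediate-early factors were also followed over the 3 times within each condition. In control amygdala the mean CPM was highest at 30 min, lower at 60 and lowest at 120 for 14 of 23 factors (60.9%), an order that 15.7% of all 17277 genes showed. In intruder amygdala the same order held for 13 of 23 (56.5%) against 20.5% of all genes. Among the 28 effectors it held for 7 (25.0%) in controls and 13 (46.4%) in intruder libraries. Fos averaged 37.2 ± 1.97, 29.0 ± 7.78 and 15.3 ± 2.67 CPM in controls at the 3 times (SD, n = 5 each), and 48.8 ± 3.89, 25.5 ± 5.82 and 17.5 ± 1.92 CPM in intruder libraries. These orders were chosen after seeing the values and were not tested, and time cannot be told apart from the tags ISO and CERV in the column names.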
